A study of Mus musculus with 6 samples.

Results

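The 10 genes examined here encode secreted antagonists of Wnt signalling, measured in sorted cells of the mouse Isl1 lineage: Dkk1, Dkk2, Dkk3, Dkk4, Wif1, Notum, Sfrp1, Sfrp2, Sfrp5 and Frzb. They were chosen by name from the Dickkopf (DKK) and secreted frizzled-related protein (SFRP) families, with Wif1 and Notum, on condition of at least 1 probe set annotated to that gene alone; Sfrp4 was not on the list and is given with the other modulators. All 10 genes had one, and together they held 18 of the 45101 probe sets on the array, or 10 of the 18193 genes tested. The series compares 3 mutant and 3 wild-type samples, each hybridised to 1 Affymetrix array, from mouse embryos at embryonic day 9.0. In both groups the cells were sorted by a yellow fluorescent reporter (YFP) that marks precardiac mesoderm of the Isl1-cre domain. The mutant embryos carried Isl1-cre, Rosa-YFP and a β-catenin allele with loxP sites around exon 3, whose recombination leaves a stabilised β-catenin protein. Which of these alleles the wild-type embryos carried, and how many embryos each sample pooled, the labels do not say. Recombination follows wherever Isl1 drives Cre, which in the embryo is not restricted to the heart.

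Canonical Wnt signalling works through β-catenin: Wnt proteins bind Frizzled receptors and the coreceptors Lrp5 and Lrp6, β-catenin escapes destruction, enters the nucleus and switches on target genes with factors of the TCF/LEF family. Secreted antagonists act upstream of this step, outside the cell. DKK proteins bind the coreceptors, SFRP proteins and Wif1 bind Wnt itself, and Notum is an enzyme that removes the lipid that Wnt needs for activity. Several of them, Dkk1 and Notum among them, are known as targets of β-catenin and so as negative feedback on the pathway, and Wnt antagonists are known from vertebrate embryos as signals that favour heart formation. Since stabilised β-catenin acts below the receptors, the comparison of mutant with wild-type cells shows the level of each antagonist's transcript where the nuclear end of the pathway is switched on.

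The array values were log2 expression values, where 1 unit is a doubling. The values of different probe sets were not set against each other, though those of marker lists were averaged or summed on each array. No detection call was used. A rough background of 4.85 was taken from bacterial control probe sets. The first principal component over all genes, which held 36.4% of the variance, placed the mutant arrays 1, 2 and 3 at 1.21, 33.0 and 29.4 and the wild-type arrays at −21.5, −20.5 and −21.6, so mutant array 1 lay between the other mutant arrays and wild type. Y-linked genes (3 of 4 measured) averaged 8.09, 9.12 and 8.33 on the mutant arrays and 9.08, 3.33 and 3.43 on the wild-type arrays, so the sexes of the embryos were not balanced between the groups. Isl1 itself was well above background, at 8.27 ± 0.68 in mutant and 9.46 ± 0.28 in wild-type cells (mean ± SD, n = 3 each). Nkx2-5, a cardiac transcription factor, averaged 4.36 in mutant and 4.82 in wild-type cells, both below the background level. It was the only 1 of 11 markers of cardiac progenitors and cardiomyocytes with both means that low. Embryonic globins, which mark primitive red cells, were bright in both groups, with Hbb-bh1 at 13.7 in mutant and 13.9 in wild-type cells. In such bulk samples fewer cells of a type and less RNA per cell cannot be told apart.

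The 10 antagonists showed 2 patterns, described here from their values; the difference between the patterns was not itself tested. All 4 DKK genes, Wif1 and Notum had a higher mean in mutant cells (6 of 10 members, against 44.7% of all genes), and for 5 of these 6 every mutant array lay above every wild-type array. The 4 SFRP genes had means within 0.23 log2 units of each other in mutant and wild-type cells, and their groups overlapped. With limma and Benjamini-Hochberg adjustment over all genes at a threshold of 0.05, none of the 10 was called higher or lower. The same fit called 12 genes higher, 0.066% of those tested, and 0 lower (0%). At an unadjusted p under 0.05, 6 of the 10 were higher and 0 lower, where 6.76% of all genes were higher and 4.84% lower. Groups that did not overlap were seen for 5 of the 10 in the higher direction and for none in the lower, against 8.64% and 9.18% of all genes. An exact permutation test of 1 gene over 3 and 3 arrays has a smallest possible p of 0.1.

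**Figure D1:**
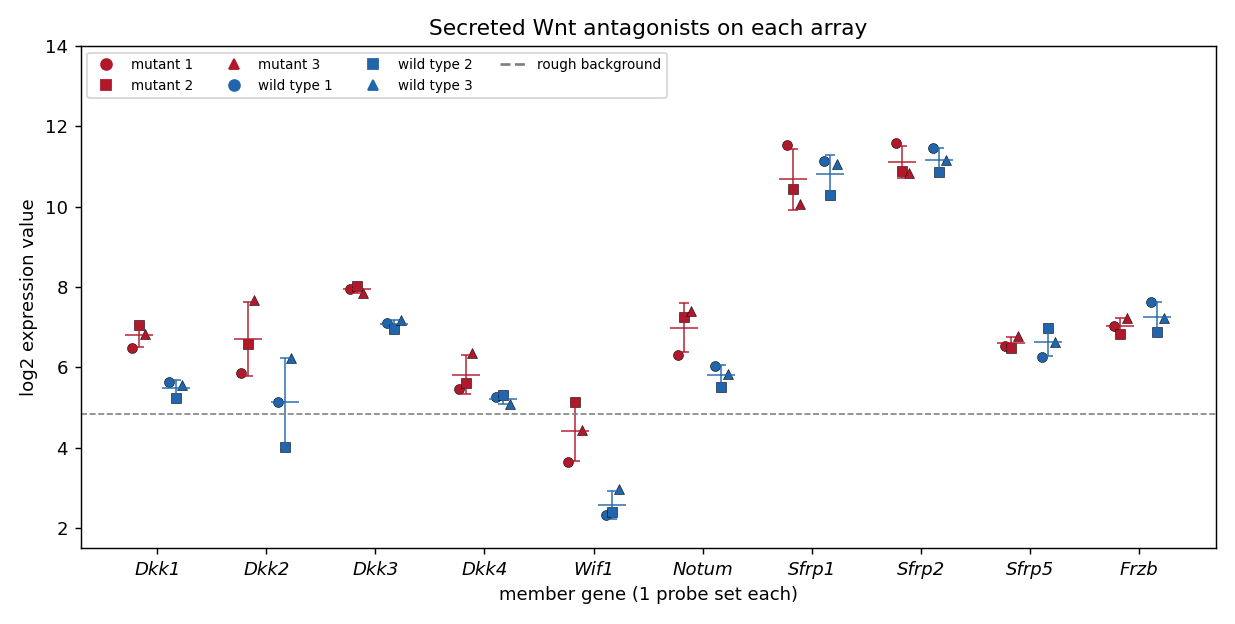
The log2 expression value (vertical axis) of each antagonist's probe set is shown for the 3 mutant arrays (red, left of each pair) and the 3 wild-type arrays (blue, right), with the mean and SD as horizontal bars and whiskers. Symbols give the replicate number and the dashed line the rough background of 4.85; Dkk1, Dkk3, Dkk4, Wif1 and Notum have no overlap between groups, and the SFRP genes do.

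Dkk1, the DKK protein best known as an inhibitor of Lrp6, read 6.49, 7.05 and 6.84 on the mutant arrays and 5.64, 5.25 and 5.55 on the wild-type arrays. The lowest mutant value was above the highest wild-type value. All 6 values were above the background of 4.85, but the wild-type values were not far above it, and Dkk1 was among the dimmest 40% of genes. The mean was 6.79 ± 0.29 in mutant and 5.48 ± 0.21 in wild-type cells (SD, n = 3 each), a difference of 1.31 with a standard error (SE) of 0.19, or 2.49-fold. Its adjusted p was 0.0881, above the threshold, and by unadjusted p it ranked 28 among 18193 genes. A separate Dkk1 probe set read 6.35, 7.35 and 6.72 on the mutant arrays and 5.97, 4.45 and 4.76 on the wild-type arrays. The groups again did not overlap, but wild-type arrays 2 and 3 were below background on this probe set. Its difference was 1.75 (SE 0.42, adjusted p = 0.248 over all single-gene probe sets), and both Dkk1 probe sets were highest on mutant array 2 and lowest on wild-type array 2.

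The Dkk1 promoter is shown because, of the 6 promoter windows at hand, it alone had several matches to the letters that TCF/LEF factors recognise. RefSeq windows on GRCm38.p6, from 250 bases before to 50 after the start of the gene, were found for 6 of the 10 members: Dkk1, Dkk2, Wif1, Sfrp2, Sfrp5 and Frzb. The letters searched were CTTTGA and CTTTGT on both strands. They occurred 3 times in the window of Dkk1, at 174, 117 and 98 bases before the start, once each in those of Dkk2 and Frzb, and not in those of Wif1, Sfrp2 and Sfrp5. Of 32851 windows of this length in the table, 31.2% held at least 1 match and 1.14% held at least 3. A match is a run of letters and not evidence of binding. Among the genes with a higher mean in mutant cells Dkk1 had 3, Dkk2 had 1 and Wif1 none. Among the SFRP genes Frzb had 1, and Sfrp2 and Sfrp5 none. Dkk3, Dkk4, Notum and Sfrp1 had no window, and a link between matches and expression was not tested. Capitals mark the matches (TCAAAG is CTTTGA read on the opposite strand) in these windows of Dkk1 (chr19:30549447-30549746, minus strand), Wif1 (chr10:121033754-121034053, plus strand) and Frzb (chr2:80447347-80447646, minus strand), each written 5′ to 3′ along its gene.
Dkk1: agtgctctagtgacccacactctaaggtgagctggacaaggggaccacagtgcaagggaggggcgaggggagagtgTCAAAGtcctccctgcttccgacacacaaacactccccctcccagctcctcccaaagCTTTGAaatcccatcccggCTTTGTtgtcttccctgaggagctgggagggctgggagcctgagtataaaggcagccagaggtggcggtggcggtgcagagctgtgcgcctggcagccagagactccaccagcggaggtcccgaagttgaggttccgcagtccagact
Wif1: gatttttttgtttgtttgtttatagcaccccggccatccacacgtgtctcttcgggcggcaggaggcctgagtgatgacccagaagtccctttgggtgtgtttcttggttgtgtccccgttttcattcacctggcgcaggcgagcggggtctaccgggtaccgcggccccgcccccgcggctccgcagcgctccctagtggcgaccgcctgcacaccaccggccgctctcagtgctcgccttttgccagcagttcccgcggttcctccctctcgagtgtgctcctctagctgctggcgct
Frzb: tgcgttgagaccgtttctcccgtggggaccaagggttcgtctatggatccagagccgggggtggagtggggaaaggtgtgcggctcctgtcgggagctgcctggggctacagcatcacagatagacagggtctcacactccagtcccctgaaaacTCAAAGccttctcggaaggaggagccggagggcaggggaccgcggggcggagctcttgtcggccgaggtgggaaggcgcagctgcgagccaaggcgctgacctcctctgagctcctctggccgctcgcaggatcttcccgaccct

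Dkk3, a divergent member of the family whose action on Wnt signalling is less settled than that of Dkk1, read 7.96, 8.03 and 7.86 on the mutant arrays and 7.10, 6.97 and 7.18 on the wild-type arrays. Both groups were tight, with SDs of 0.09 in mutant and 0.11 in wild-type cells (n = 3 each), and did not overlap. The difference was 0.87 (SE 0.12), or 1.82-fold, with an adjusted p of 0.0881 and rank 31 among all genes. A second Dkk3 probe set gave a smaller difference of 0.27 (SE 0.14, adjusted p = 0.502), from 6.38, 6.39 and 6.49 on the mutant arrays and 6.32, 5.98 and 6.16 on the wild-type arrays. The groups did not overlap on this probe set either, though the gap was narrow.

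Dkk2, which like Dkk1 binds Lrp6 but can act as an activator or an inhibitor depending on the context, varied widely between arrays of 1 group. It read 5.85, 6.58 and 7.68 on the mutant arrays and 5.14, 4.01 and 6.23 on the wild-type arrays, with wild-type array 2 below background. Wild-type array 3 lay above mutant array 1, so the groups overlapped. The difference of 1.57 had an SE of 0.62 and an adjusted p of 0.398, with a 95% interval from 0.13 to 3.02. When each array was left out in turn the difference ran from 1.02 without wild-type replicate 2 to 2.13 without wild-type replicate 3.

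Dkk4, a DKK protein known as a Wnt target in several epithelia, was close to background in both groups. It read 5.45, 5.62 and 6.36 on the mutant arrays and 5.26, 5.31 and 5.08 on the wild-type arrays. The groups did not overlap, but mutant array 1 stood only a little above the wild-type arrays and mutant array 3 was far above the other mutant arrays. The difference was 0.59 (SE 0.24, adjusted p = 0.404), and 0.32 without mutant replicate 3.

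Wif1, which binds Wnt proteins directly, was dim. It read 3.65, 5.13 and 4.44 on the mutant arrays and 2.33, 2.41 and 2.98 on the wild-type arrays, so that of the 6 values that of mutant array 2 alone exceeded the background level. The groups did not overlap (adjusted p = 0.184), but both means, 4.41 in mutant and 2.57 in wild-type cells, were below background and no fold is given. The gene had 1 probe set, so no second reading could be compared.

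Notum, the Wnt deacylase, read 6.30, 7.27 and 7.41 on the mutant arrays and 6.05, 5.51 and 5.85 on the wild-type arrays. Mutant array 1 was only a little above wild-type array 1, and mutant arrays 2 and 3 were far above all wild-type arrays. The mean was 6.99 ± 0.60 in mutant and 5.80 ± 0.27 in wild-type cells (SD, n = 3 each), a difference of 1.19 (SE 0.30), or 2.28-fold, with an adjusted p of 0.237.

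Mutant array 1 carried the lowest mutant value for Dkk1, Dkk2, Dkk4, Wif1 and Notum, and Dkk3 was the exception. Without that array, limma called 3 of the 10 antagonists higher, where 0.445% of all genes were called higher. Dkk1 then stood at 1.47 (adjusted p = 0.0372), Notum at 1.53 (adjusted p = 0.0398) and Wif1, still dim, passed with an adjusted p of 0.0436, while Dkk3 at 0.86 did not (adjusted p = 0.0840). Leaving out any of the other 5 arrays gave no called antagonist. The difference of Dkk1 ranged from 1.18 to 1.47 over the 6 fits that each left out 1 array, that of Dkk3 from 0.81 to 0.91 and that of Notum from 0.98 to 1.53. Dkk1, Dkk3, Notum and Wif1 were higher at an unadjusted p under 0.05 in each of these 6 fits. The share of all genes higher at that level was 7.81%, 5.21% and 5.03% without mutant replicates 1, 2 and 3, and 6.09%, 5.58% and 5.82% without wild-type replicates 1, 2 and 3.

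**Figure D2:**
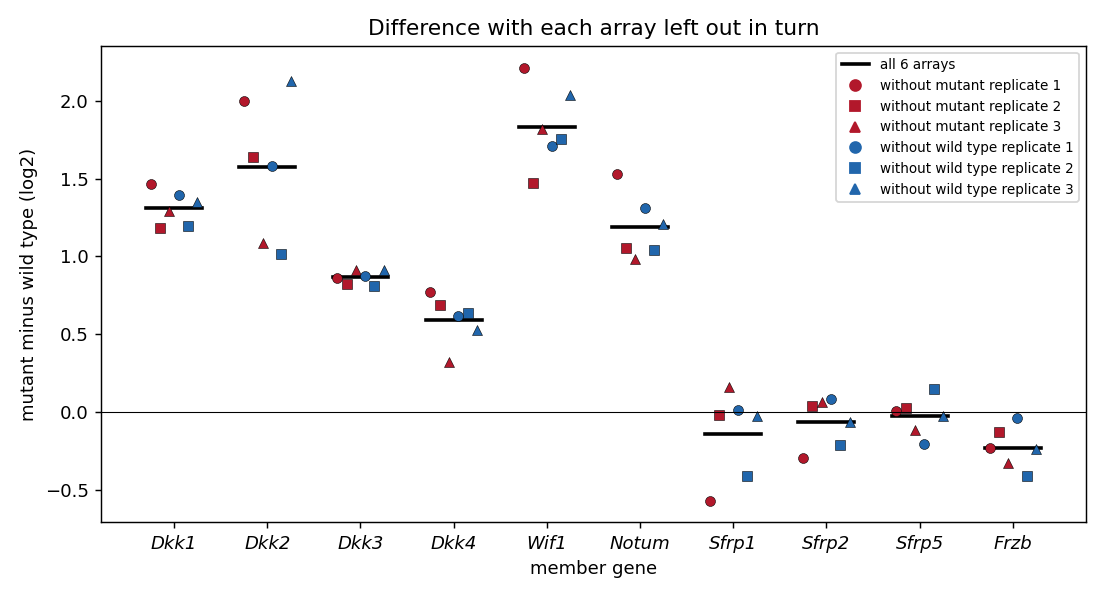
The difference between mutant and wild-type means on the log2 scale (vertical axis) is shown for each antagonist with all 6 arrays (black line) and with each array left out in turn (red symbols, a mutant array; blue symbols, a wild-type array). Dkk1, Dkk3 and Notum stay above 0.8 throughout and the SFRP genes stay near or cross 0. Both group means of Wif1 lie below background, so its differences are not measured folds.

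The Y-linked signal also moved with the comparison, as wild-type array 1 alone among the wild-type arrays had it. That array read 5.64 for Dkk1 and 6.05 for Notum, the highest wild-type value of each, and 7.10 for Dkk3, between the other wild-type arrays. Each value was below all 3 mutant arrays, as follows from groups that do not overlap. The part of embryo sex in these levels was not tested. With the mean of the Y-linked genes as a covariate, the differences were 1.14 for Dkk1 and 0.84 for Dkk3 (adjusted p = 0.375 for each) and 0.93 for Notum (adjusted p = 0.560). Dkk1, Dkk3 and Wif1 remained higher at an unadjusted p under 0.05 in that fit, in which 5.39% of all genes were, and Dkk2, Dkk4 and Notum did not.

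The SFRP genes encode decoys that carry a Frizzled-like domain. Sfrp1 read 11.54, 10.44 and 10.08 on the mutant arrays and 11.14, 10.28 and 11.06 on the wild-type arrays. It was bright on all 6 arrays, and the mutant arrays spanned more than the whole range of wild type. The difference was −0.14 (SE 0.39, adjusted p = 0.909), with a 95% interval from −1.06 to 0.78, which holds a halving but not a doubling. All 5 Sfrp1 probe sets were highest on mutant array 1 and lowest on mutant array 3, with a range over the arrays of 1.09 to 1.51, so the spread of Sfrp1 between arrays was shared by its probe sets. Their differences ran from −0.42 to −0.05, and none passed.

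Sfrp2 read 11.57, 10.90 and 10.85 on the mutant arrays and 11.47, 10.87 and 11.17 on the wild-type arrays. Like Sfrp1 it was highest on mutant array 1 and lowest on mutant array 3. The difference was −0.06 (SE 0.24, adjusted p = 0.935), with a 95% interval from −0.62 to 0.50. Neural marker genes (5 of 5 measured: Elavl3, Neurod4, Tubb3, Stmn2 and Sox2) also averaged highest among the mutant arrays on array 1. They averaged 9.21, 7.72 and 8.02 on the mutant arrays, against 9.13, 8.99 and 9.68 on the wild-type arrays. Their part in the Sfrp1 and Sfrp2 levels was not tested.

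**Figure D3:**
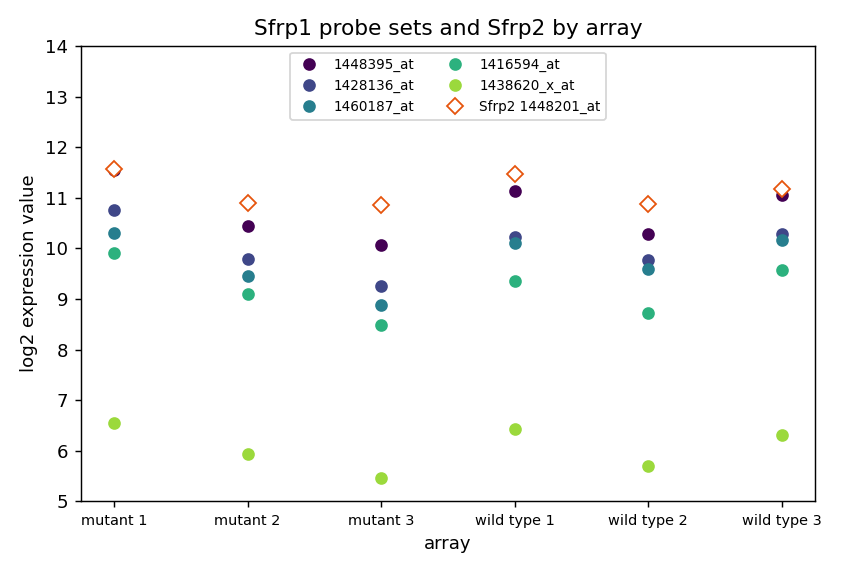
Log2 expression values (vertical axis) of the 5 Sfrp1 probe sets (filled circles, 1 colour each) and of the Sfrp2 probe set (open diamonds) are shown on the 3 mutant arrays and the 3 wild-type arrays. Each Sfrp1 probe set is highest on mutant array 1 and lowest on mutant array 3, and Sfrp2 shows the same extremes.

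Sfrp5, a marker of the foregut and of the inflow part of the early heart in mouse, read 6.54, 6.49 and 6.77 on the mutant arrays and 6.27, 6.98 and 6.63 on the wild-type arrays. The mutant values lay inside the range of wild type, and the difference was −0.03 (SE 0.20, 95% interval −0.48 to 0.43, adjusted p = 0.967). A second Sfrp5 probe set gave −0.19 (SE 0.17). Frzb, also known as Sfrp3, read 7.02, 6.82 and 7.22 on the mutant arrays and 7.63, 6.89 and 7.23 on the wild-type arrays. The groups overlapped, and the difference was −0.23 (SE 0.21, 95% interval −0.72 to 0.26, adjusted p = 0.683). The other Frzb probe set had the opposite sign, at 0.26 (SE 0.21), so these arrays gave Frzb no direction.

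**Figure D4:**
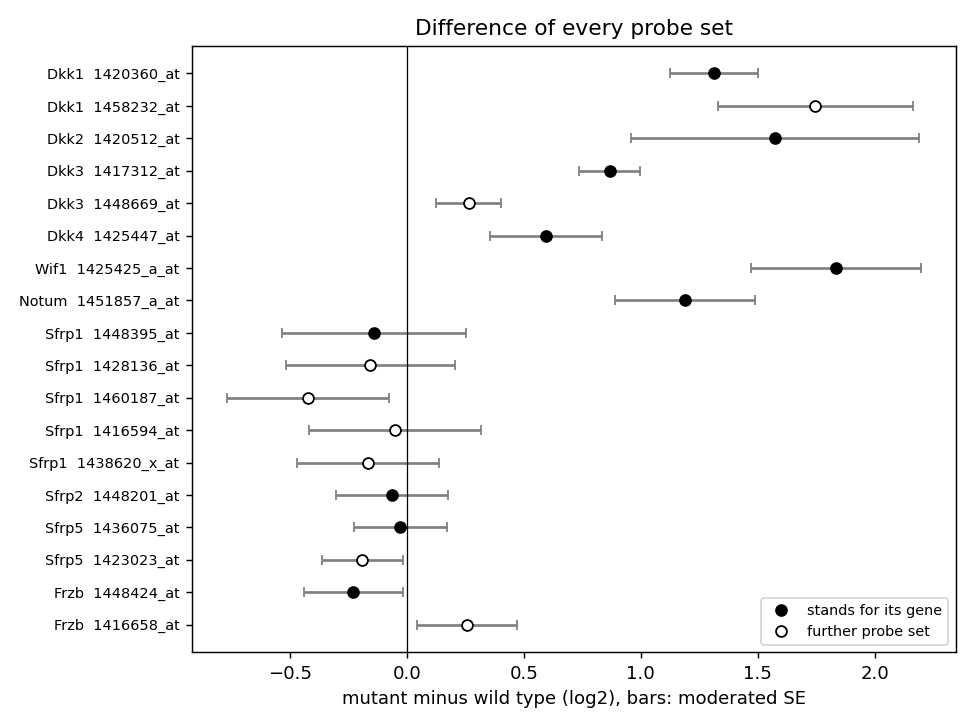
The difference between mutant and wild-type means on the log2 scale (horizontal axis) is shown for all 18 probe sets of the 10 antagonists, with bars of 1 moderated SE. Filled circles stand for their gene in the test and open circles are further probe sets. The 8 probe sets of the DKK genes, Wif1 and Notum lie above 0 (both group means of Wif1 are below background). The 10 of the SFRP genes lie from −0.42 to 0.26.

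The median difference of the 10 antagonists was 0.73, against −0.03 over all genes, and it lies between Dkk4 and Dkk3, within the group of higher genes. Intracellular and membrane feedback genes of the pathway had a median of 0.58. Of 10 measured, 9 had a higher mean, and 1 was called higher and 0 lower: Apcdd1, whose product holds Wnt signalling back at the cell surface, rose by 1.82 (SE 0.16, adjusted p = 0.0371), with its 6 probe sets from 0.35 to 2.51. Its call was kept without mutant replicate 1 (adjusted p = 0.0114) and was lost when any of the other 5 arrays was left out (adjusted p from 0.1004 to 0.1794), while its difference ran from 1.70 to 1.94. Those 5 fits each called at most 0.022% of all genes higher, against 0.445% without mutant replicate 1. The next by p were the transcription factor Sp5 at 1.23 (adjusted p = 0.126) and Axin2, a scaffold of the β-catenin destruction complex, at 0.74 (adjusted p = 0.208). Apcdd1 read 11.07, 11.57 and 11.33 on the mutant arrays and 9.56, 9.39 and 9.56 on the wild-type arrays, and so it too was lowest, among the mutant arrays, on array 1.

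Receptors and the coreceptors that DKK proteins bind had a median of 0.10, and none of 17 passed. The 3 with the smallest p were Fzd1 at 0.41, Fzd6 at 0.78 and Fzd5 at −0.73, and for Fzd5 and Fzd6 further probe sets had the opposite sign. Of the DKK coreceptors, named for their role after their values were seen, Lrp6 stood at 0.12 (SE 0.12), Lrp5 at 0.10 (SE 0.17) and Kremen1 at 0.23 (SE 0.14). Wnt ligands had a median of −0.0014, and none of 19 passed, with Wnt1 at 1.02, Wnt9a at 0.63 and Wnt5b at 0.69 having the smallest p. The probe sets of Wnt9a ran from −0.25 to 0.63 and those of Wnt5b from 0.03 to 0.69.

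Other secreted modulators had a median of 0.01, and none of 12 passed. Sostdc1, which encodes a further secreted inhibitor of BMP and Wnt signalling, read 8.63, 9.64 and 9.54 on the mutant arrays and 7.93, 8.26 and 7.03 on the wild-type arrays. Its groups did not overlap, and the difference was 1.53 (SE 0.37, adjusted p = 0.231). Ndp, a Frizzled4 ligand, stood at −0.46 near the background level, and Igfbp4 at 0.25. Sfrp4, Dkkl1 and Cer1 were below background on every array. Of 5 genes for Wnt lipidation, Wnt secretion and glypicans none passed, with a median of 0.45; Gpc4 stood at 0.61, the Wnt transporter Wls at 0.45 (probe sets from 0.03 to 0.87) and Gpc6 at 0.48.

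**Figure D5:**
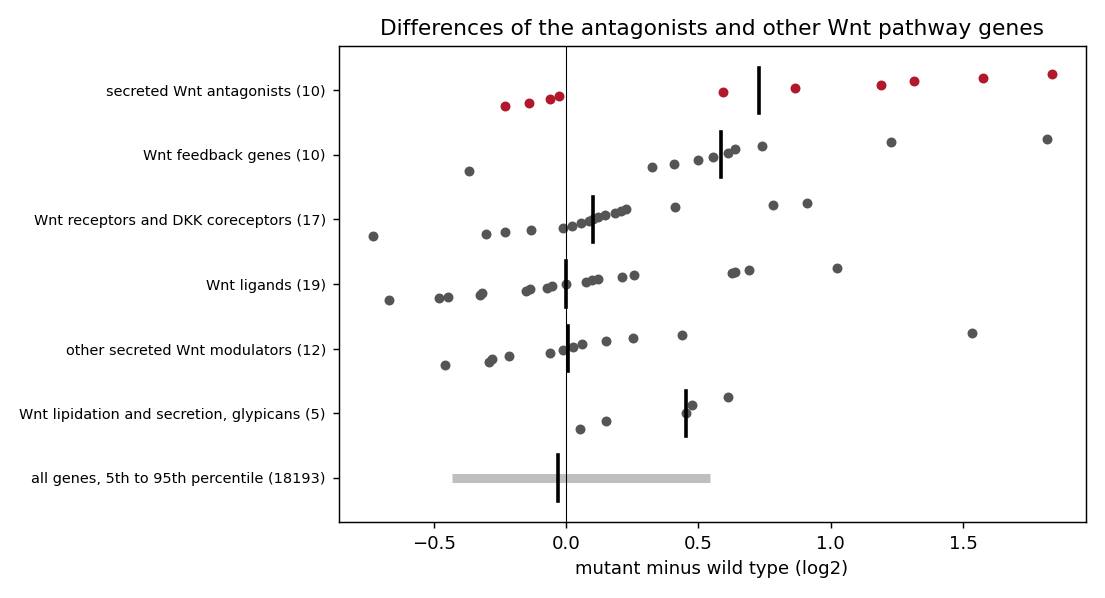
The difference between mutant and wild-type means on the log2 scale (horizontal axis) is shown for each measured gene of 6 lists, with the number of genes in brackets and the list median as a black bar. The grey bar spans the 5th to 95th percentile of all 18193 genes, from −0.43 to 0.55; 6 antagonists lie to the right of it and the 4 SFRP genes lie within it.

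The genes with profiles most like that of Dkk1 were sought among 14122 genes with a mean above background, as those with the smallest root mean square difference from Dkk1 over the 6 arrays after each gene was centred on its own mean. They were Fosl2, a subunit of the AP-1 transcription factor, at 0.14 log2 units, Pxdc1 at 0.14, Abcg1, a cholesterol exporter, at 0.14, Uap1l1 at 0.16 and Slc16a3, a lactate transporter, at 0.17. Fosl2 read 7.41, 7.93 and 8.07 on the mutant arrays and 6.68, 6.23 and 6.77 on the wild-type arrays. It was lowest, like Dkk1, on mutant array 1 and wild-type array 2 of their groups, a likeness that its choice by these same values favours.

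Markers of other cell types, and genes that respond to low oxygen, also differed in mean between the groups. Over all genes, 44.7% had a higher mean in mutant cells and 0.066% were called higher. The summed level of a list was the sum of its antilog values on an array, in which the brightest probe sets weigh most. For 10 low oxygen genes it was 32512 to 45034 on the mutant arrays and 20760 to 21712 on the wild-type arrays. All 10 had a higher mean and 3, Pfkp, Adm and Ndrg1, were called higher. This list, like the others and the members, was chosen with earlier results of these data known. Its counts are therefore not independent of those results. Of these, Pfkp and Adm were called only without mutant replicate 1 when each array was left out in turn, and Ndrg1 also without wild-type replicate 3. Without mutant replicate 1, 0.445% of all genes were called higher, and at most 0.022% with any other array left out. For endothelial markers all 7 measured had a higher mean in mutant cells, with summed levels of 2482 to 3266 in mutant and 1549 to 2635 in wild-type cells. Neural crest markers had a higher mean for 5 of 6 (3556 to 4139 in mutant and 1860 to 2542 in wild-type cells), and surface ectoderm markers for 6 of 6 (5200 to 10097 in mutant and 3392 to 5589 in wild-type cells). Markers of cardiac progenitors and cardiomyocytes had a higher mean for 4 of 11, with 3305 to 3750 in mutant and 4410 to 5709 in wild-type cells, and pharyngeal endoderm markers for 1 of 5, with 535 to 661 in mutant and 849 to 989 in wild-type cells. Neural markers had a higher mean for 0 of 5, with a median difference of −0.72 (1883 to 4815 in mutant and 3898 to 5837 in wild-type cells). Visceral endoderm markers had one for 1 of 6, with a median of −0.66 and a wide spread within each group (376 to 2287 in mutant and 442 to 5531 in wild-type cells). Markers of primitive red cells had a higher mean for 0 of 4, with a median of −0.18 (34686 to 50087 in mutant and 41679 to 47208 in wild-type cells), and those of posterior and paraxial mesoderm for 4 of 5, with a median of 0.13 (840 to 1199 in mutant and 680 to 1219 in wild-type cells). No marker of these 9 cell types was called. Higher without overlap between the groups were 9 low oxygen, 4 endothelial, 3 neural crest and 2 surface ectoderm genes, where 8.64% of all genes were. Lower without overlap were 3 cardiac, 2 pharyngeal endoderm and 2 neuronal genes, where 9.18% of all genes were. The 2 neuronal genes, Elavl3 and Neurod4, had probe sets from −1.37 to −0.08 and from −1.74 to −0.19. The part of these lists in the levels of the antagonists was not tested.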

How the data were processed

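RNA of the 6 sorted samples was extracted with Trizol, amplified with WT-Ovation Pico, labelled with biotin and hybridised to Affymetrix arrays, per the labels' protocols. The deposited values are log2 expression values per probe set; the base was read from their range, 1.89 to 15.07. The authors' background correction, summarisation and normalization are not given in the sources used. Array medians lay between 6.47 and 6.50 and the largest SD at a rank was 0.069, so no rescaling was done, and a shift common to most genes would not be seen.

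Platform annotation named the probe sets, with symbols updated by gene ID from RefSeq (34741 of 34945 single-gene probe sets matched). 932 probe sets naming several genes, 9160 unnamed and 64 controls were left out. Where a gene had several probe sets (9010 genes), the brightest on average represented it. No dim gene was removed. The background level of 4.85 is the 95th percentile over 27 bacterial control probe sets.

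Mutant minus wild type was fitted in R 4.3.3 with limma 3.58.1 (lmFit and eBayes, two-sided, no covariate, 3.45 prior degrees of freedom), adjusting by Benjamini-Hochberg over 18193 genes, or over all single-gene probe sets where so named. The code was tested on simulated data. The number of arrays limits the precision, and a p-value reflects only the spread among these 6 samples. The alternatives were the replicate number as a block, quantile normalization, median centring, leaving out the dimmest 40% of genes, other choices of probe set, a trended robust prior, array weights, a Y-linked covariate, an adjusted p of 0.01, a log2 change of at least 1, and leaving out each array. Members and lists were chosen with earlier results of these data known. Genes named are the members, the 3 of each pathway list with the smallest p, the 5 most like the member with the smallest p above background, and markers for the tissue check. Counts at an unadjusted p and of groups without overlap were followed over the alternatives after the data were seen. Tcf7, Kremen2, T and Ddx3y were not analysed here.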

Additional observations from a re-analysis of the deposited data

How the results depend on the processing

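No antagonist was called higher or lower under the alternatives run, except without mutant replicate 1, where 3 were called higher (0.445% of all genes). Leaving out each array in turn gave between 0 and 3 called antagonists. The other fits over genes called at most 0.101% of the genes tested higher, the most without the dimmest 40%. With the replicate block 0 antagonists were called, but 0 of all 18193 genes (0%) were called higher either. Dkk1 and Dkk3 kept their differences in that fit, with adjusted p-values of 0.164 and 0.198. Deviations of same-numbered arrays from their group means correlated across genes at 0.108, −0.075 and −0.016, so no strong shared effect of the replicate number was seen. With 3 arrays per group these values cannot show whether same-numbered samples were paired. Without the dimmest 40% of genes 6 antagonists were tested and Dkk1, Dkk2, Dkk4 and Wif1 were not among them; 2 of these 6, Dkk3 and Notum, were higher at an unadjusted p under 0.05 (8.88% of all genes tested there), and the same 2 were higher without overlap between the groups (11.4% of all genes). With the Y-linked covariate 3 antagonists were higher at an unadjusted p under 0.05, against 6 in the fit without it (5.39% and 6.76% of all genes), and the cause was not tested. When an array was left out, the unadjusted count was 4 to 6, and the count higher without overlap was 5 or 6. Of all genes, 12.1% to 14.9% were higher without overlap in those fits, against 8.64% with all arrays. Without wild-type replicate 2, 1 antagonist, Frzb, was lower without overlap, by 7.222 on mutant array 3 against 7.228 on wild-type array 3. Its second probe set had the opposite sign with all arrays, at 0.26. The share of all genes lower without overlap in that fit was not computed. The signs of the DKK genes, Wif1 and Notum held in every fit in which they were tested. Those of the SFRP genes did not. When an array was left out, Sfrp1 ran from −0.57 to 0.16 (0.014 lacking wild-type array 1), Sfrp2 from −0.30 to 0.086 (0.042 and 0.067 lacking mutant array 2 or 3) and Sfrp5 from −0.21 to 0.15 (0.0043 and 0.027 lacking mutant array 1 or 2). Sfrp5 was 0.28 with the Y-linked covariate. Frzb was 0.26 with the most variable probe set, which is its second probe set tested on its own, and 0.015 with the mean of its probe sets. The median difference of all genes was −0.03, and −0.02 and −0.05 with quantile normalization and median centring, under which no antagonist changed sign.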
